A study of Mus musculus with 6 samples.

Results

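The 6 mouse Dlx genes, Dlx1 to Dlx6, were described across the cell types of the cardiogenic region of the E10.5 embryo. They were taken by symbol from the 32285 features of a single-cell RNA-seq table, and all 6 were found once. The embryos were wild type C57BL/6, dissociated with TrypLE and profiled with the Chromium 3′ v3 chemistry, and the labels name 3 samples from vehicle-treated and 3 from STZ-treated mothers; streptozotocin destroys insulin-producing cells, and the STZ females were hyperglycemic when they were mated with males of normal glycemia. The labels state that cells of non-cardiac mesoderm, ectoderm and endoderm were collected along with the heart. The deposited table pools 6 libraries, told apart by the last digit of the cell barcode, and the files used here hold no map from library to sample. Vehicle and STZ embryos were therefore not compared: the table was treated as 1 sample, and the libraries are numbered 1 to 6 without a treatment.

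Of 53362 barcodes, 35962 held at least 2500 genes and at most 10% mitochondrial UMIs (unique molecular identifiers, the counted RNA molecules). Each library gave 4903 to 7136 of these cells, with median depths of 30533 to 35634 UMIs. Among the kept cells, 2890 carried a barcode sequence also present in another library. Levels are given as CPM, the UMIs of a gene per 1000000 UMIs of the same cells, with exact 95% Poisson intervals, and shares of cells with exact 95% binomial intervals. The intervals cover counting error only. The spread between libraries is given beside them, and no p-value was computed, since a table that pools samples with no map to them was treated as 1 sample.

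Dlx genes encode homeodomain transcription factors related to Drosophila Distal-less, and they lie in the mouse genome as convergently transcribed pairs. In the pharyngeal arches, neural crest cells that fill the arch form a nested pattern known as the Dlx code: Dlx1 and Dlx2 are expressed along the whole dorsal to ventral axis, Dlx5 and Dlx6 in the ventral and intermediate part, and Dlx3 and Dlx4 most ventrally. Endothelin-1, secreted by the arch ectoderm and core and received by Ednra on the crest, promotes Dlx5 and Dlx6 expression, and loss of Dlx5 and Dlx6 gives the lower jaw an upper jaw-like form.

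The 3 pairs were on different chromosomes of the GRCm38 build (GENCODE M21). Dlx1 (ENSMUSG00000041911) lay at chr2:71528113-71533981 on the plus strand and Dlx2 (ENSMUSG00000023391) at chr2:71543408-71546754 on the minus strand, 9426 bp apart. Dlx6 (ENSMUSG00000029754) lay at chr6:6863334-6868568 on the plus strand and Dlx5 (ENSMUSG00000029755) at chr6:6877805-6882085 on the minus strand, 9236 bp apart. Dlx3 (ENSMUSG00000001510) lay at chr11:95120119-95125296 on the plus strand and Dlx4 (ENSMUSG00000020871) at chr11:95140447-95146263 on the minus strand, 15150 bp apart. In each pair the 2 genes pointed towards each other.

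The genes are paralogs, so their sequences show how far reads from one could be taken for another. The most alike region is the homeobox, which encodes the DNA-binding domain. A stretch of 51 coding bases, homeobox codons 42 to 58, is shown for the 6 genes, from GENCODE M21 transcripts, 5′ to 3′ on the coding strand, with capitals at the 19 positions where the 6 were not all the same:
Dlx1: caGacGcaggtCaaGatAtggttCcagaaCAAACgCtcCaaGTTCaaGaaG
Dlx2: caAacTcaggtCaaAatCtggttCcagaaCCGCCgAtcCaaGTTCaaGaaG
Dlx3: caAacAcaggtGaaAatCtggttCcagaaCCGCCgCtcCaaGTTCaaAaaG
Dlx4: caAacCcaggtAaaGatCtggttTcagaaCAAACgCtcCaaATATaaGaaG
Dlx5: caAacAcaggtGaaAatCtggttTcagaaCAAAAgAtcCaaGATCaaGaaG
Dlx6: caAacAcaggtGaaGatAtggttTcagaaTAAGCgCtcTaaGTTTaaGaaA
Each stretch crosses the junction of exons 2 and 3. The genomic span of the stretch, intron included, was chr2:71531148-71532305 for Dlx1, chr2:71544883-71545392 for Dlx2, chr11:95121890-95123450 for Dlx3, chr11:95141428-95141797 for Dlx4, chr6:6878447-6879534 for Dlx5 and chr6:6865263-6867082 for Dlx6. Over the whole homeobox of 180 bases, identity between members ran from 66.1% for Dlx3 and Dlx6 to 81.7% for Dlx2 and Dlx3. The genes of a chromosomal pair were 73.9% (Dlx1 and Dlx2), 71.7% (Dlx3 and Dlx4) and 73.3% (Dlx5 and Dlx6) identical. The longest run of bases shared exactly by any pair of these transcripts was 23 bases.

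Dlx2 had a UMI in 21.8% of kept cells, the largest share among the members, and the 250 bases before its start site were available from the RefSeq promoter table (GRCm38.p6, chr2:71546755-71547004, minus strand), with capitals at matches to CACGTG:
Dlx2 upstream: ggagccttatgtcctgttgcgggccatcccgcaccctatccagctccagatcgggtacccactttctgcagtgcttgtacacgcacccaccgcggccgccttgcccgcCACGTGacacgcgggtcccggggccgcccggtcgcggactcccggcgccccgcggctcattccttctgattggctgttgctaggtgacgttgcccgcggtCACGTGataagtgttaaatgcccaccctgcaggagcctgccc
The window held 2 matches to CACGTG, which reads the same on both strands, and 6.02% of 32851 promoter windows of this length held at least 1. The wider E-box CANNTG, the class of site that Twist1 and the Hand factors bind, matched at the same 2 places and in 66.2% of windows. TAAT, the core of many homeodomain sites, was searched on both strands and had 0 matches here against 54.9% of windows with one. A match is a run of letters and not a measured binding site.

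Cell types were rebuilt from marker genes, since no deposited annotation was used. A cell joined one of 12 marker lists where at least 50% of the list's markers were on and the share was at least 0.2 above the next list. The names below are shorthand for these gates. Crest mesenchyme, 3769 cells with a median of 42075 UMIs, needed mesenchymal markers (Twist1, Prrx1, Prrx2, Ednra, Pdgfra, Msx1) and a UMI of Tfap2a or Tfap2b, factors expressed in neural crest. A further 6530 cells passed the same list without a Tfap2 UMI. They are called Tfap2-negative mesenchyme, a group made after the data were seen, and they were shallower, at a median of 31525 UMIs. Migratory crest and glia, led by Sox10, held 269 cells, and surface ectoderm held 1564. In all, 9778 cells (27.2%) joined no gate.

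Sox10, Epcam and Tnnt2 are markers that the gates used, so their levels describe the gates and do not check them. Sox10, the regulator of migrating and glial crest, was at 208 CPM in migratory crest and glia and 3.94 CPM in crest mesenchyme. Epcam, an epithelial adhesion protein, was at 721 CPM in surface ectoderm and 4.56 CPM in crest mesenchyme. Tnnt2, a thin-filament protein of heart muscle, was at 3950 CPM in cardiomyocytes and 4.69 CPM in crest mesenchyme. Barx1, a homeobox gene of arch mesenchyme that no gate used, was at 188 CPM in crest mesenchyme, 117 CPM in Tfap2-negative mesenchyme and 17.8 CPM in cardiomyocytes. In the migratory crest and glia gate the summed level of the neuron list was 348 CPM, against 29.6 CPM in crest mesenchyme. Whether cells of the neuron list made up part of that gate was not tested.

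All 6 genes had most of their UMIs in the crest mesenchyme and Tfap2-negative mesenchyme gates. Crest mesenchyme and Tfap2-negative mesenchyme together held 52.8% and 26.8% of the Dlx1 UMIs of all kept cells, 51.3% and 24.4% for Dlx2, 34.1% and 44.2% for Dlx3, 32.7% and 51.3% for Dlx4, 48.1% and 34.5% for Dlx5, and 44.4% and 39.0% for Dlx6. The Tfap2-negative gate was not all arch-like: Wnt2, a gene of splanchnic mesoderm, was at 22.9 CPM there and 1.46 CPM in crest mesenchyme, the splanchnic list summed to 140 and 64.1 CPM, and 61.6% of its thinned cells had no Dlx gene. Migratory crest and glia held Dlx1 and Dlx2 at the level of crest mesenchyme but almost no UMI of the other 4 genes. Surface ectoderm held mainly Dlx2, with lower levels of Dlx3 and Dlx5.

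Dlx1, with Dlx2 the pair expressed most broadly along the arch, was at 55.9, 50.3, 53.8, 55.5, 58.2 and 63.5 CPM in crest mesenchyme of libraries 1 to 6, and 56.5 CPM (55.4 to 57.7) in the pooled cells. Its level in Tfap2-negative mesenchyme was 34.4, 19.7, 32.9, 9.25, 13.6 and 18.5 CPM, below every crest value. In migratory crest and glia the pooled level was 59.9 CPM, and the 3 libraries with at least 50 such cells, 4 to 6, were at 60.3, 51.9 and 68.4 CPM. The latter range overlapped that of crest mesenchyme, so the first and second place in the order of gates were not separated. After thinning each cell to 10000 UMIs, which left out 1009 shallower cells, 38.9% of crest mesenchyme cells (75.0% unthinned) and 4.47% of surface ectoderm cells had a Dlx1 UMI.

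Dlx2, with Dlx1 needed for upper jaw structures, was at 59.9, 65.5, 70.7, 79.6, 76.6 and 85.5 CPM in crest mesenchyme of libraries 1 to 6 (pooled 73.3 CPM, 72.0 to 74.7). In migratory crest and glia it was at 69.6 CPM, within that range. Tfap2-negative mesenchyme at 26.6 CPM and surface ectoderm at 25.2 CPM (libraries 19.0 to 31.0) overlapped over libraries, and no library of either exceeded 36.5 CPM, below every crest value. Of thinned cells, 47.3% in crest mesenchyme (83.4% unthinned) and 18.4% in surface ectoderm had a Dlx2 UMI. Pharyngeal endoderm and epithelium that was not split further held Dlx2 at no more than 2.46 CPM.

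Dlx3, a gene of the ventral arch that also acts in skin and placenta, was at 16.0, 14.6, 16.2, 11.3, 10.6 and 11.4 CPM in crest mesenchyme of libraries 1 to 6 (pooled 13.2 CPM, 12.6 to 13.7). Tfap2-negative mesenchyme was at 13.0 CPM, with libraries from 5.35 to 20.4 CPM, and surface ectoderm was at 7.01 CPM, with libraries from 4.59 to 8.63 CPM. The libraries of Tfap2-negative mesenchyme overlapped those of both other gates, while every crest mesenchyme value lay above every surface ectoderm value. Surface ectoderm lay above the next gate in every library. Dlx4, the partner of Dlx3, was the sparsest member, with 1576 UMIs in all kept cells. It was at 3.15 CPM (2.89 to 3.44; libraries 2.01 to 4.80) in crest mesenchyme and 3.76 CPM (libraries 1.42 to 6.29) in Tfap2-negative mesenchyme, which overlapped. Of 3729 thinned crest mesenchyme cells, 391 had a Dlx3 UMI (25.9% of cells unthinned) and 102 a Dlx4 UMI (2.74%, and 10.2% unthinned).

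Dlx5, a regulator of lower jaw identity that also acts in bone formation, was at 95.6, 91.7, 97.6, 79.0, 84.1 and 81.1 CPM in crest mesenchyme of libraries 1 to 6 (pooled 87.5 CPM, 86.1 to 89.0). Tfap2-negative mesenchyme followed at 47.8 CPM (28.7 to 66.5), then surface ectoderm at 7.35 CPM (4.98 to 8.60) and cardiomyocytes at 3.14 CPM (1.92 to 3.80). For Dlx5 the library ranges of these 4 gates did not overlap. Dlx6, its partner in lower jaw identity, was at 46.3, 41.3, 47.3, 38.7, 40.3 and 37.3 CPM in crest mesenchyme (pooled 41.4 CPM, 40.4 to 42.4) and at 27.7 CPM in Tfap2-negative mesenchyme (18.9 to 39.4), and these ranges overlapped. Dlx6 was at 0.747 CPM in surface ectoderm, where Dlx5 was at 7.35 CPM. Shares of thinned crest mesenchyme cells were 41.8% for Dlx5 (60.1% unthinned) and 27.2% for Dlx6 (50.6% unthinned).

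Endothelium, erythroid cells and cardiomyocytes had been planned as background gates, and pharyngeal endoderm was added here. Cardiomyocytes are given apart from the others. In endothelium, with a median of 38806 UMIs per cell, the members were at 0.0126 to 1.05 CPM, and 0.559% of thinned cells had a Dlx5 UMI. In erythroid cells, at a median of 65069 UMIs, the members were at 0.0414 to 0.714 CPM. No member exceeded 1.19 CPM in pharyngeal endoderm. The few cells with a UMI shared genes: 4 of 11 erythroid cells with Dlx1 or Dlx2 also had Dlx5 or Dlx6, against 0.420% of the others, and the source of these UMIs was not tested. Dlx2 in the 195 cells of the neuron gate, at 4.35 CPM (2.82 to 6.43), lay above these levels. So did Dlx5 in cardiomyocytes, at 3.14 CPM, the top of the background if that planned gate is counted. Dlx5 was also above them in unsplit epithelium (2.56 CPM), neurons (2.26 CPM), paraxial mesoderm (1.75 CPM) and branchiomeric muscle (1.44 CPM). Other members were above them in some of these gates. In cardiomyocytes no member reached the 10 CPM needed for a call against endothelium, where 11.5% of 9301 genes were higher and 15.1% lower.

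**Figure D1:**
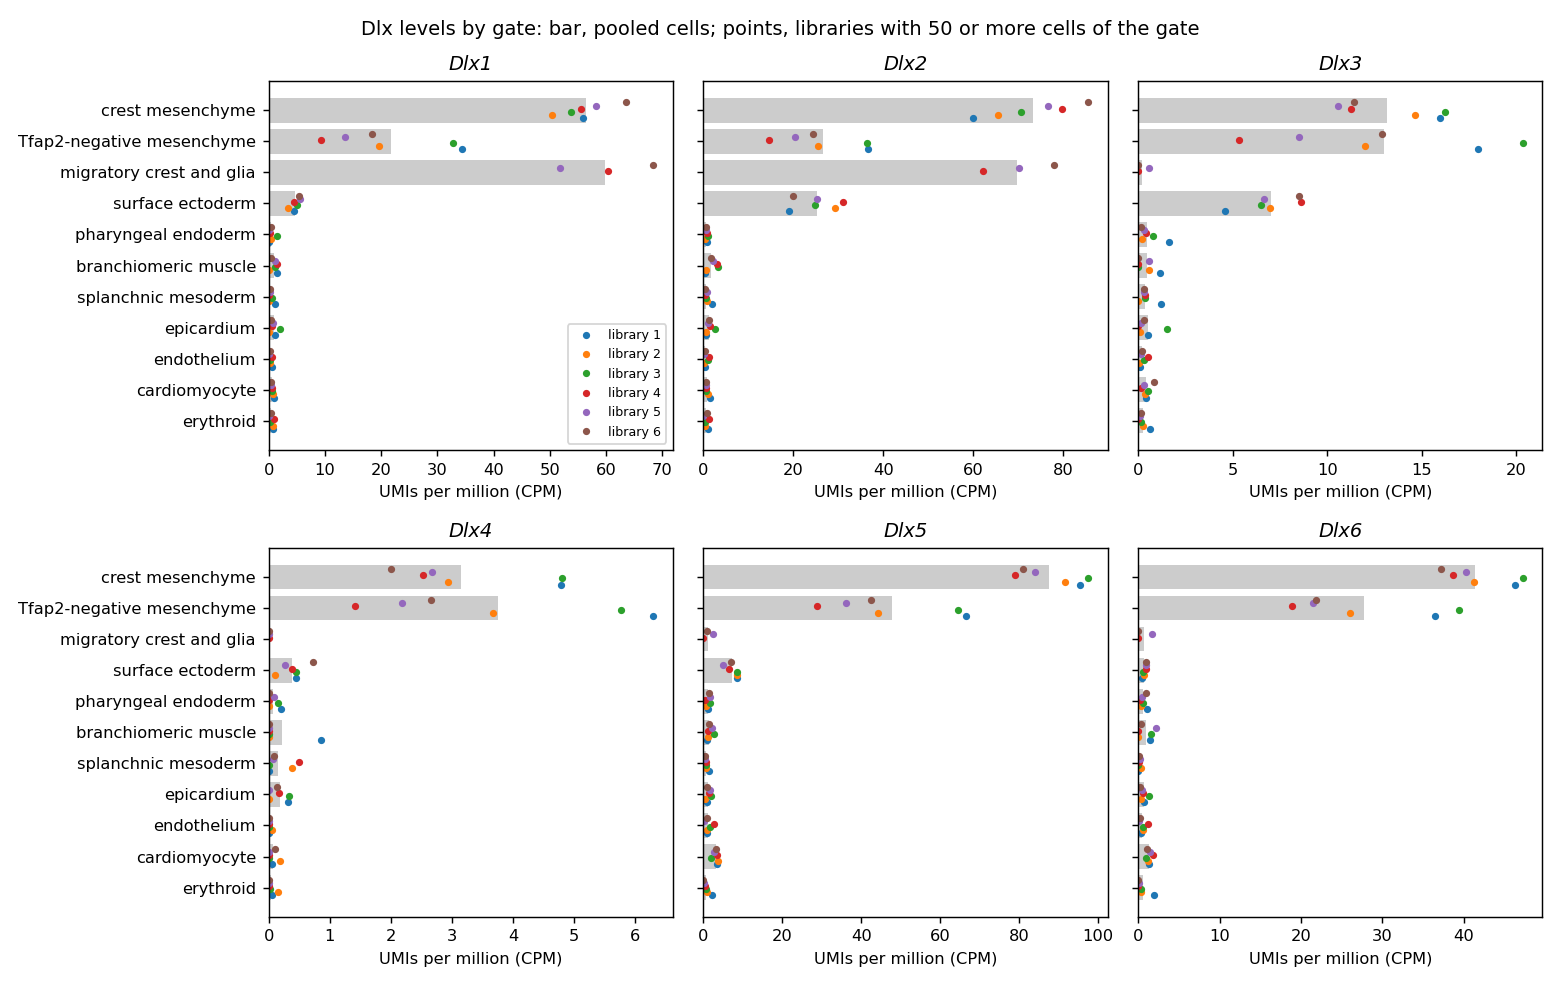
Levels of the 6 Dlx genes, in CPM, in 11 gates; bars are pooled cells and points are libraries with at least 50 cells of the gate. Crest mesenchyme, at 87.5 CPM for Dlx5, and Tfap2-negative mesenchyme stand out for all 6 genes, while migratory crest and glia stand out for Dlx1 and Dlx2 only.

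Differences between gates were called where the pooled CPM differed at least 2-fold and in the same direction in all 6 libraries, among genes at 10 CPM or more on either side. Against surface ectoderm, 4 of 5 members tested were higher in crest mesenchyme, where 3.93% of 9424 genes tested were higher and 12.3% lower. Dlx6 was 55.5-fold higher (39.5 to 80.7), Dlx1 12.1-fold, Dlx5 11.9-fold (10.7 to 13.3) and Dlx2 2.91-fold (2.73 to 3.09). Dlx3, at 1.88-fold, was the tested member below the threshold. Of 8876 genes tested, 3.8% were lower and 5.71% higher in migratory crest and glia than in crest mesenchyme, and the lower ones included 3 of the 5 members tested. Dlx5 was 79.0-fold lower (44.2 to 158) on 11 UMIs, Dlx6 58.8-fold (28.5 to 146) on 7 UMIs and Dlx3 65.4-fold (18.1 to 540) on 2 UMIs. Dlx4 had 0 UMIs there, where 3 counts, the limit used for a count of 0, are 0.302 CPM. All 4 were below 1.19 CPM, the highest level of a member in pharyngeal endoderm, so these folds rest on values near background. Dlx1 was at 59.9 and 56.5 CPM (1.06-fold) and Dlx2 at 69.6 and 73.3 CPM in the same comparison. The crest-derived cells outside the mesenchyme thus held the Dlx1 and Dlx2 pair without the others, in 269 cells of which libraries 1 to 3 gave 12, 22 and 19.

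Against Tfap2-negative mesenchyme, Dlx1 was 2.59-fold and Dlx2 2.76-fold (2.68 to 2.85) higher in crest mesenchyme, 2 of the 5 members tested against 0.463% of 8648 genes higher and 2.43% lower. Dlx5 was 1.83-fold and Dlx6 1.49-fold higher, and Dlx3 and Dlx4 were at 1.01-fold and 0.839-fold. The members of the nested inner pairs therefore differed less between the gates than Dlx1 and Dlx2. The part of the lower depth of the Tfap2-negative cells in missing a Tfap2 UMI was not tested.

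Crest mesenchyme was then divided by arch and by position along the dorsal to ventral axis. Cells with a UMI of Hoxa3, Hoxb3 or Hoxd3 were called posterior arch (2033 cells), cells with Hoxa2 or Hoxb2 but no Hox3 UMI second arch (1542), and cells with neither Hox-negative (194). Hoxa2 marks crest of the second arch and behind, and first arch crest lacks Hox expression. Hoxb4, expressed further back and not used in the division, was at 48.7 CPM in posterior arch, 1.16 CPM in second arch and 2.18 CPM in Hox-negative cells. A single UMI limits the division: one of Hoxa2 or Hoxb2 was present in 93.3% of crest mesenchyme cells but also in 37.5% of endothelial, 30.6% of cardiomyocyte and 6.04% of erythroid cells, and the Hox-negative cells were shallower, at a median of 30068 UMIs. First arch cells may thus stand in the second arch division, and their number was not tested. Cells with a UMI of Hand1 or Hand2, factors of the ventral arch crest, were called Hand-positive (1791 cells, against 1978 Hand-negative). Hand2 is also a heart gene. A Hand UMI was carried by 91.0% of cardiomyocyte, 60.6% of endothelial, 15.3% of surface ectoderm, 8.11% of myeloid and 4.30% of erythroid cells.

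Over the whole crest mesenchyme, Hand-positive cells held more Dlx5 and Dlx6 and less of the other 4 members, but no member passed the fold threshold. None of 5 members tested was called in either direction, where 2.06% of 8463 genes were higher and 0.544% lower in Hand-positive cells. Dlx5 was 1.49-fold higher (1.44 to 1.54) in Hand-positive cells, in 5 of 6 libraries. Dlx6 ran from 45.3 CPM in library 1 to 65.7 CPM in library 6 in Hand-positive cells and was at 47.6, 29.5, 37.1, 25.8, 24.8 and 21.3 CPM in Hand-negative cells of libraries 1 to 6 (pooled 1.84-fold, 1.75 to 1.93). Dlx1 was 1.54-fold and Dlx2 1.31-fold higher in Hand-negative cells, in 6 of 6 libraries each. Dlx3 and Dlx4, the pair known as most ventral, were also lower with Hand, Dlx3 at 10.8 and 15.5 CPM (lower in 5 of 6 libraries) and Dlx4 at 2.18 and 4.15 CPM (lower in 6 of 6). The Hand-positive cells held more posterior arch cells (1091, against 542 of the second arch) than the Hand-negative cells (942 against 1000), and within the arches Dlx3 was at 6.62 and 5.80 CPM in posterior and 21.9 and 24.5 CPM in second arch crest with and without Hand. The pooled drop of Dlx3 thus turned or became small within an arch. When a Hox call needed 2 UMIs, a setting chosen after the data were seen, posterior arch Dlx3 was at 5.43 CPM with and 2.79 CPM without Hand. Second arch Dlx3 was then at 20.6 and 24.2 CPM. Pooled Dlx4 was lower with Hand within both arches, at 0.967 CPM (0.722 to 1.27) with and 1.74 CPM (1.35 to 2.20) without Hand in posterior arch crest. In second arch crest it was at 4.92 CPM (4.06 to 5.91) and 6.34 CPM (5.59 to 7.15), intervals that overlapped. The lowest library there was at 3.59 CPM with Hand and 2.49 CPM without. At a Hox call of 2 UMIs Dlx4 was at 0.608 and 0.681 CPM in posterior and at 4.57 and 6.31 CPM in second arch crest. Library 1 was the exception to the direction of Dlx5 and Dlx6: without it, Dlx6 passed the threshold and the count was 1.

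Dlx5 and Dlx6 were higher with Hand in posterior arch crest. In posterior arch crest, Dlx5 was at 98.8, 107, 114, 131, 127 and 148 CPM in Hand-positive cells of libraries 1 to 6 and at 57.2, 57.3, 60.4, 50.6, 46.4 and 50.3 CPM in Hand-negative cells. Dlx6 was at 47.9, 51.1, 57.8, 68.3, 60.5 and 72.4 CPM against 18.1, 19.3, 23.4, 17.5, 18.2 and 15.7 CPM. Every Hand-positive value of both genes lay above every Hand-negative value. In the pooled cells Dlx5 was 2.26-fold (2.15 to 2.38) and Dlx6 3.20-fold (2.95 to 3.48) higher with Hand, so 2 of 4 members tested were called, against 1.32% of 8400 genes higher and 0.5% lower. Without the Tfap2 requirement Dlx5 was at 64.7 and 35.1 CPM, 1.84-fold, and no longer called, and Dlx6 was 2.63-fold higher, both in 6 of 6 libraries. Dlx1 (49.4 and 59.6 CPM) and Dlx2 (71.9 and 80.5 CPM) were on the other side of 1 and not called.

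In second arch crest the pooled Dlx5 and Dlx6 levels were near each other with and without Hand, while Dlx1 and Dlx2 were lower with Hand. Dlx5 was at 85.2 CPM in Hand-positive and 86.3 CPM in Hand-negative cells, and Dlx6 at 46.3 and 39.2 CPM. Dlx1 was at 40.2, 39.3, 44.2, 37.4, 43.5 and 39.4 CPM in Hand-positive cells of libraries 1 to 6 and at 80.0, 65.9, 71.3, 72.3, 76.6 and 85.3 CPM in Hand-negative cells, with no overlap. Its pooled difference, 1.91-fold (1.78 to 2.06) higher without Hand, stayed under the threshold, as did that of Dlx2 (52.8 and 86.4 CPM, 1.64-fold, 6 of 6 libraries). None of the 5 members tested was called, where 2.45% of 8459 genes were higher and 0.674% lower. No share over all genes was computed for library values that do not overlap. Dlx1 passed the threshold when Hand-positive cells needed 2 UMIs, or when no margin between marker lists was asked. The pooled Dlx5 level in Hand-negative cells hides a wide spread, from 58.2 to 140 CPM over libraries, and the direction turned between libraries. Dlx5 was lower with Hand in libraries 1 to 3 (78.8, 85.3 and 87.6 against 125, 122 and 140 CPM). It was higher with Hand in libraries 4 and 6 (90.5 and 100.1 against 64.9 and 58.2 CPM) and near equal in library 5 (72.5 and 73.7 CPM). Dlx6 ran from 44.3 to 50.8 CPM with Hand and from 25.8 to 59.9 CPM without. After thinning, no Dlx pair was found in 26.5% of Hand-positive and 9.96% of Hand-negative second arch cells. Foxf1, a gene of the splanchnic list, was also higher with Hand there. The part of other cell types in these differences was not tested. Whether the effect of Hand differed between the arches was not tested.

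Dlx3 and Dlx4 were higher in second than in posterior arch crest. Dlx3 was at 23.7, 32.0, 29.8, 20.5, 23.6 and 18.3 CPM in second arch crest of libraries 1 to 6 and at 7.02, 7.32, 9.70, 5.40, 3.90 and 5.39 CPM in posterior arch crest. The values did not overlap, and the pooled level was 3.76-fold higher (3.42 to 4.14) in second arch crest. Dlx3 was the 1 member called of 5 tested, where 0.643% of 8402 genes were higher and 1.26% lower. Dlx4 was 4.51-fold higher (3.66 to 5.59) in 6 of 6 libraries, at 5.83 against 1.29 CPM, under the level of the genes tested. The other pairs were near 1: Dlx1 64.3 and 53.7, Dlx2 74.3 and 75.5, Dlx5 85.9 and 91.0, and Dlx6 41.7 and 41.5 CPM in second and posterior arch crest. When a Hox call needed 2 UMIs, a setting chosen after the data were seen, Dlx3 was at 22.8 CPM in second arch and 4.34 CPM in posterior arch crest, and Dlx4 at 5.66 and 0.638 CPM.

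The 194 Hox-negative crest cells held less Dlx1, Dlx2 and Dlx3 than second arch cells. Dlx1 was at 16.4 against 64.3 CPM, Dlx2 at 29.2 against 74.3 CPM and Dlx3 at 7.05 against 23.6 CPM, all 3 called lower where 0.867% of 8761 genes were lower and 3.57% higher. Dlx5 (51.2 and 85.9 CPM) and Dlx6 (37.2 and 41.7 CPM) were not called. At a Hox call of 2 UMIs the Hox-negative levels were higher, at 28.0 CPM for Dlx1, 44.8 CPM for Dlx2 and 11.2 CPM for Dlx3, against 64.2, 75.4 and 22.8 CPM in second arch cells, and the difference of Dlx2 was under 2-fold. Of these cells 158 were Hand-positive, so most of them stood on the Hand side of the axis. Their splanchnic genes were also on, with Foxf1 at 80.9 CPM and Isl1 at 62.4 CPM. At that setting the division held 397 cells, and its 131 Hand-negative cells, at a median of 19074 UMIs, held Dlx1 at 56.3 CPM and Dlx2 at 69.7 CPM. The 266 Hand-positive cells of that division held 17.8 and 35.8 CPM, so the low Dlx1 and Dlx2 were on the Hand-positive side.

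In Tfap2-negative mesenchyme the Dlx levels were lower in posterior than in second arch cells, and no share over all genes was computed. Among Hand-positive cells Dlx3 was at 20.8 CPM in second and 3.32 CPM in posterior arch cells, Dlx1 at 29.9 and 9.52 CPM and Dlx5 at 72.7 and 23.3 CPM. Dlx2 was at 40.0 and 14.2 CPM, Dlx4 at 5.37 and 0.739 CPM and Dlx6 at 44.3 and 13.9 CPM. In Hand-positive crest mesenchyme Dlx3 was likewise lower in the posterior arch (21.9 and 6.62 CPM), while Dlx1 was at 40.6 and 49.4 CPM and Dlx5 at 85.2 and 119 CPM. No Dlx pair was found after thinning in 82.3% of posterior arch and 36.7% of second arch Hand-positive cells of Tfap2-negative mesenchyme. The splanchnic list summed to 140 CPM in the whole gate. The part of cells from outside the arches in the lower posterior levels was not tested. Dlx5 was at 23.3 CPM and Dlx6 at 13.9 CPM in posterior arch Hand-positive cells against 10.3 and 4.63 CPM in Hand-negative cells. Matched by Hand, the pooled posterior arch levels in this group were below those of crest mesenchyme, with overlapping intervals for Dlx4.

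**Figure D2:**
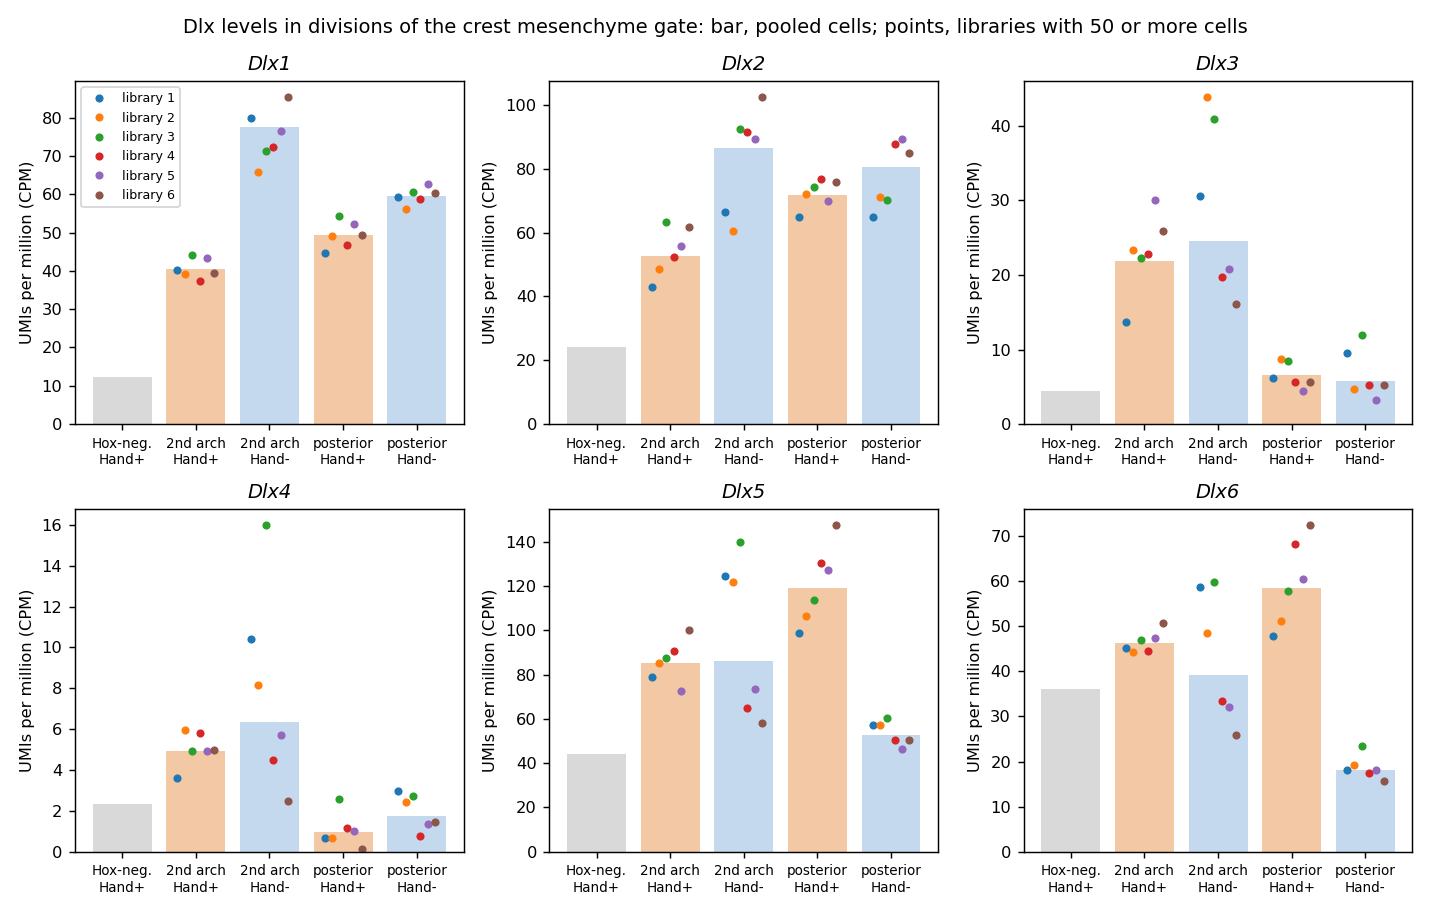
Levels of the 6 Dlx genes, in CPM, in divisions of the crest mesenchyme gate by Hox and Hand UMIs; bars are pooled cells and points are libraries with at least 50 cells. Dlx5 and Dlx6 separate Hand-positive from Hand-negative posterior arch crest, at 119 against 52.6 CPM for Dlx5, and Dlx3 is higher in both second arch divisions, at 21.9 and 24.5 CPM.

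The nested code predicts an order within single cells: a cell with Dlx3 or Dlx4 should also have Dlx5 or Dlx6, and a cell with Dlx5 or Dlx6 should also have Dlx1 or Dlx2. In thinned crest mesenchyme, 373 of 457 cells with Dlx3 or Dlx4 also had Dlx5 or Dlx6, 81.6% (77.8 to 85.1), against 44.6% (42.9 to 46.3) of cells without Dlx3 or Dlx4, in 6 of 6 libraries. The odds ratio was 5.51, and averaged over thinning draws the shares were 79.0% and 45.0%, with an odds ratio of 4.59. Of cells with Dlx5 or Dlx6, 20.3% had Dlx3 or Dlx4, against 4.43% of cells without. The odds ratio is the same both ways, and the gap between 81.6% and 20.3% follows from the numbers of cells with each pair.

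The outer step had a lower odds ratio than the inner step in crest mesenchyme. Of 1833 cells with Dlx5 or Dlx6, 68.0% (65.8 to 70.1) had Dlx1 or Dlx2, against 60.8% (58.6 to 63.0) of cells without, an odds ratio of 1.37 with the same direction in 5 of 6 libraries. Averaged over draws the shares were 69.2% and 61.0%, with an odds ratio of 1.43. The unthinned cells were also split into 3 depth classes of equal size. In the deepest class, with a median of 57634 UMIs, Dlx1 or Dlx2 was found in 98.8% of cells with Dlx5 or Dlx6 and 95.5% of those without. In the shallowest class, at 28423 UMIs, these shares were 86.1% and 70.6%. The odds ratios of the outer step were 2.58, 2.09 and 3.77 from the shallowest to the deepest class, above that of the thinned cells, while nearly all deep crest cells had Dlx1 or Dlx2. Those of the inner step were 20.8, 31.4 and 33.1, with 98.2% against 62.7% in the deepest class. Depth still varied within each class, and its part in these odds ratios was not tested.

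The odds ratios of both steps were unequal between divisions. In Hand-positive crest, Dlx1 or Dlx2 was found in 63.8% of cells with Dlx5 or Dlx6 and 43.8% of those without (odds ratio 2.26, 6 of 6 libraries), against 73.8% and 71.1% in Hand-negative crest (1.14, 4 of 6). The inner step went the other way, with odds ratios of 3.44 in Hand-positive and 9.13 in Hand-negative crest. Averaged over draws, the odds ratios in Hand-positive and Hand-negative crest were 2.54 and 1.13 for the outer step. For the inner step they were 2.60 and 8.04. Dlx3 or Dlx4 was found in 34.2% of second arch but 9.24% of posterior arch cells with Dlx5 or Dlx6. These differences between divisions were not tested.

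Outside crest mesenchyme the code took other forms. In Tfap2-negative mesenchyme, 57.8% of cells with Dlx5 or Dlx6 had Dlx1 or Dlx2, against 10.1% of those without (odds ratio 12.2), and 76.2% of cells with Dlx3 or Dlx4 had Dlx5 or Dlx6, against 24.8% (9.68). That group mixes cells with and without any Dlx gene, since 61.6% had none. In surface ectoderm, 21.2% of cells had Dlx1 or Dlx2 both with and without Dlx5 or Dlx6 (23.8% and 21.7% averaged over draws), and 7.63% of cells with Dlx3 or Dlx4 had Dlx5 or Dlx6, against 6.66% of those without. Among combinations of the chromosomal pairs there, the highest odds ratio was that of Dlx3 or Dlx4 with Dlx1 or Dlx2, at 12.2% against 6.41% (2.03, 6 of 6 libraries).

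**Figure D3:**
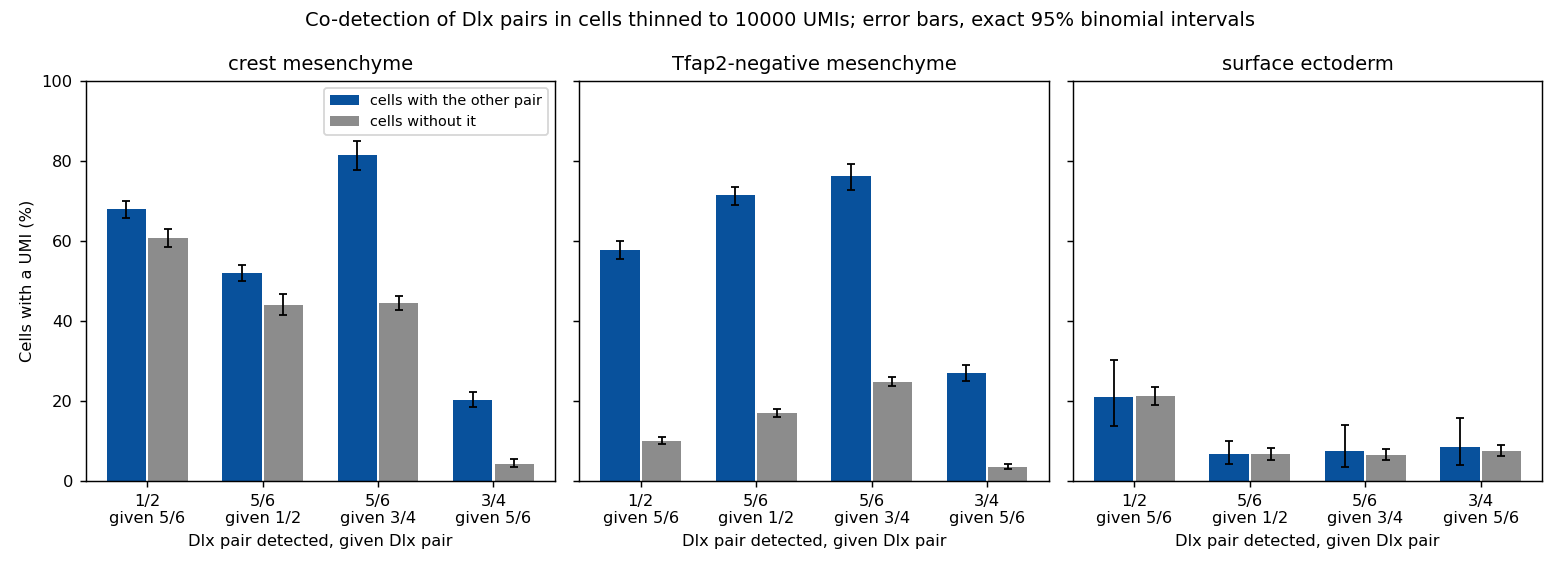
Share of cells, in percent, with one Dlx pair among cells with another pair (blue) and among cells without it (grey), in 3 gates thinned to 10000 UMIs; error bars are exact 95% binomial intervals. In crest mesenchyme the step from Dlx3 or Dlx4 to Dlx5 or Dlx6 (81.6% against 44.6%) is wide and the step to Dlx1 or Dlx2 (68.0% against 60.8%) narrow, and in surface ectoderm the intervals of each pair of bars overlap.

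Each cell was placed in a state by the pairs it held. Of 3729 thinned crest mesenchyme cells, 29.4% had Dlx1 or Dlx2 only, 26.1% had these with Dlx5 or Dlx6, and 7.32% had all 3 pairs. These are the 3 states that a nested code allows. They made up 2341 of the 3012 cells with any pair, 77.7%, and 60.4% in surface ectoderm, where the odds ratios of the steps were near 1. Such a share depends on how frequent each pair is and is no measure of nesting by itself. The main departure was Dlx5 or Dlx6 alone, in 13.1% of cells. At 10000 UMIs a missing pair may be a missed one, and the share of cells with none of the pairs, 19.2%, carries the same limit.

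The states followed the divisions. Dlx1 or Dlx2 alone was the state of 47.3% of posterior arch Hand-negative cells and 18.7% of posterior arch Hand-positive cells, where Dlx1 or Dlx2 with Dlx5 or Dlx6 was most frequent at 40.9%. All 3 pairs were found in 11.6% of second arch Hand-positive and 13.7% of second arch Hand-negative cells. In migratory crest and glia, 177 of 267 cells, 66.3%, had Dlx1 or Dlx2 only, and 33.0% had none. In surface ectoderm 68.8% had none and 17.4% had Dlx1 or Dlx2 only.

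**Figure D4:**
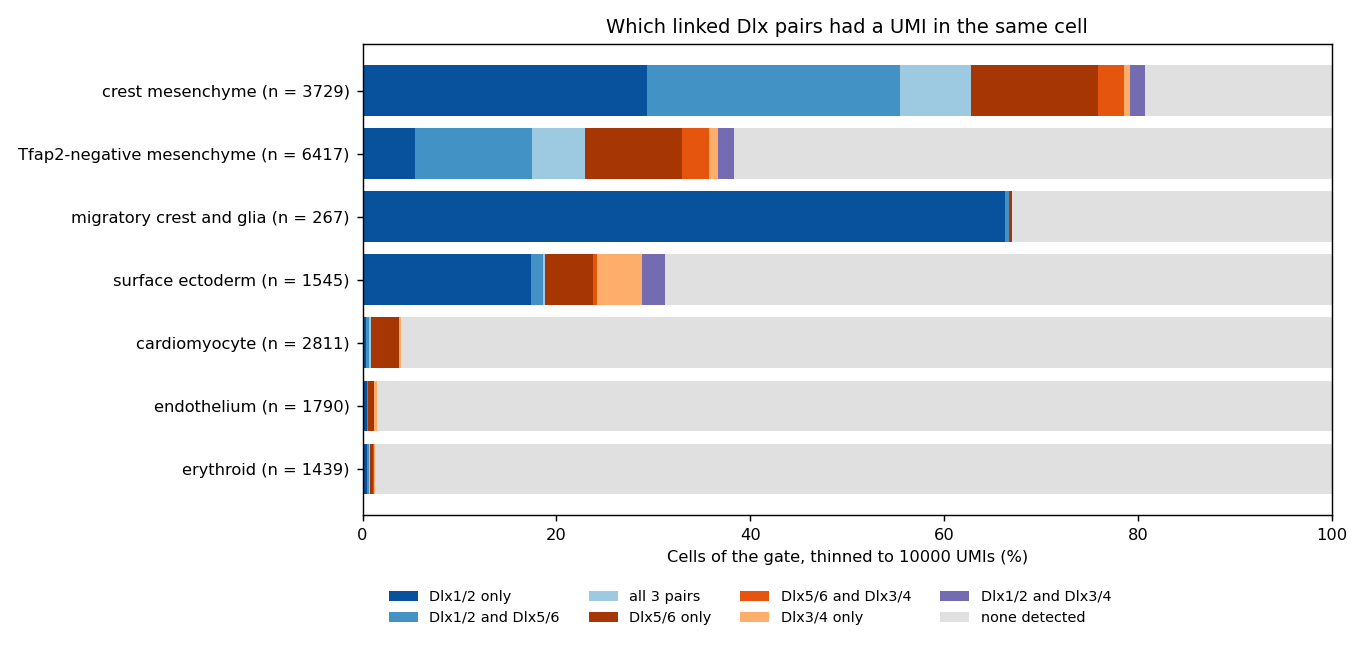
Share of cells of each gate, in percent, by the Dlx pairs with a UMI after thinning to 10000 UMIs per cell; colours are the 8 combinations and n is the number of cells. Nested states (blue) fill most of crest mesenchyme, a single state fills 66.3% of migratory crest and glia, and nearly all cardiomyocyte, endothelial and erythroid cells have none.

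Single genes were also paired within cells. In thinned crest mesenchyme, Dlx6 was found in 47.6% of cells with Dlx5 and 12.7% of those without, an odds ratio of 6.25, the highest of the pairings. Dlx4 followed with Dlx3 (9.21% and 1.98%, 5.03), and then Dlx5 with Dlx3 (71.1% and 38.3%, 3.96), genes of different chromosomes. Dlx2 was found in 56.1% of cells with Dlx1 and 41.6% of those without. The pairs that cross the outer step were at 1.33 for Dlx1 and Dlx5, 1.15 for Dlx1 and Dlx6, 1.26 for Dlx2 and Dlx5 and 0.994 for Dlx2 and Dlx6, and Dlx2 and Dlx4 were at 0.684. These odds ratios describe sparse counts of cells that share libraries and were not tested against each other.

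Other genes of arch patterning were taken from lists chosen with earlier results of these data known. The ventral list holds the endothelin pathway and genes that depend on it, and the dorsal list holds genes of the upper jaw or dorsal arch. Between Hand-positive and Hand-negative crest, 2 of 8 ventral genes tested were higher (Gsc and Bmp4) and 1 lower (Emx2), where 2.06% of all genes were higher and 0.544% lower. The median log2 difference was 0.08 against 0.01 over all genes. None of 10 dorsal genes was higher and 4 were lower (Pou3f3, Cyp26a1 and Six2 among them), with a median of -0.48. Pou3f3, a factor of the dorsal arch, was at 2.07 CPM with Hand and 40.4 CPM without. Cyp26a1, which degrades retinoic acid, was at 1.14 and 14.1 CPM, and Gsc, a homeobox gene of the lower jaw, at 15.2 and 1.88 CPM. Among regulators of the Dlx genes and their antisense partners, 3 of 7 were higher with Hand (Msx1, Msx2 and Foxf1) and 0 lower. Msx2, a BMP target, was at 69.3 and 5.98 CPM. Msx1 was a marker of the crest gate itself, and Foxf1 belongs to the splanchnic list. Foxf1 was also higher with Hand within second and posterior arch crest. The part of splanchnic cells in the Hand division was not tested.

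The posterior arch, where Dlx5 and Dlx6 were called, had these calls among the lists, where 1.32% of all genes were higher and 0.5% lower. There 1 of 6 ventral genes tested was higher (Bmp4, a signal of the distal arch, at 18.0 and 8.08 CPM) and 0 lower, with a median log2 difference of -0.03, while 2 of 8 dorsal genes were lower, Pou3f3 (1.64 and 11.4 CPM) and Six2 (14.4 and 44.4 CPM). Of 7 regulators, Msx2 (80.3 and 8.59 CPM), Msx1 (97.2 and 15.7 CPM) and Foxf1 (39.1 and 12.6 CPM) were higher and Tfap2b was lower. In the second arch, where they were not, 2 of 8 ventral genes were higher and 1 lower (median 0.31), and 2 of 8 dorsal genes lower (median -0.73), against 2.45% of all genes higher and 0.674% lower. Foxf1 was at 35.2 and 0.871 CPM and Pou3f3 at 3.47 and 67.9 CPM. Ednra, the endothelin receptor, was lower with Hand in 6 of 6 libraries in both arches without passing the threshold, at 24.8 and 44.0 CPM in the second arch.

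Between the arches, second arch crest was higher in 4 of 10 ventral genes tested (Emx2, Gsc, Dlx6os1 and Cited1) and lower in 1 (Mef2c, an effector of endothelin signalling), where 0.643% of all genes were higher and 1.26% lower. The median log2 difference was 0.52 against 0.02 over all genes. It was higher in 3 of 10 dorsal genes (Pou3f3 and Cyp26a1 among them) and lower in 2 (Six2 and Shox2). Pou3f3 was at 44.6 and 5.76 CPM, Six2 at 2.27 and 27.0 CPM, and Emx2 at 25.6 and 4.39 CPM. Tfap2b was at 9.15 CPM in second and 88.6 CPM in posterior arch crest. The crest gate asks for a UMI of Tfap2a or Tfap2b, so the share of arch cells that the gate takes can differ between the arches.

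The same genes were read across the states of crest mesenchyme cells. Barx1 was at 50.8 CPM in cells with no pair, 85.7 CPM with Dlx1 or Dlx2 only, 263 CPM with these and Dlx5 or Dlx6, and 427 CPM with all 3 pairs. The library ranges of the last states were apart, from 246 to 283 CPM and from 392 to 473 CPM. Barx1 was at 206 CPM in cells with Dlx5 or Dlx6 only. The states also differ in arch, and these levels were not split by arch. All 3 pairs were found in 11.6% and 13.7% of second arch cells with and without Hand, against 3.67% and 3.03% in posterior arch. Msx1 was at 28.3 CPM with Dlx1 or Dlx2 only and between 79.3 and 84.0 CPM in the states with Dlx5 or Dlx6.

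Other genes peaked in other states. Pou3f3 was at 46.6 CPM with Dlx1 or Dlx2 only and at 6.71 to 14.7 CPM in the other states shown, but its libraries ran from 0.864 to 82.1 CPM in that state. Hand2 was at 104 CPM with Dlx5 or Dlx6 only, 85.1 CPM with no pair, 70.5 CPM with the outer pairs (Dlx1 or Dlx2, and Dlx5 or Dlx6), 34.9 CPM with all 3 and 34.1 CPM with Dlx1 or Dlx2 only. Hand2 was thus lowest, at like levels, in the states with all 3 pairs and with Dlx1 or Dlx2 only. Gsc was at 3.47 CPM with Dlx1 or Dlx2 only, 12.9 CPM with all 3 pairs, 14.5 CPM with Dlx5 or Dlx6 only, 7.11 CPM with the outer pairs and 10.8 CPM with none. Tfap2b was at 79.7 CPM with Dlx1 or Dlx2 only and 15.7 CPM with all 3 pairs, beside its difference between the arches.

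**Figure D5:**
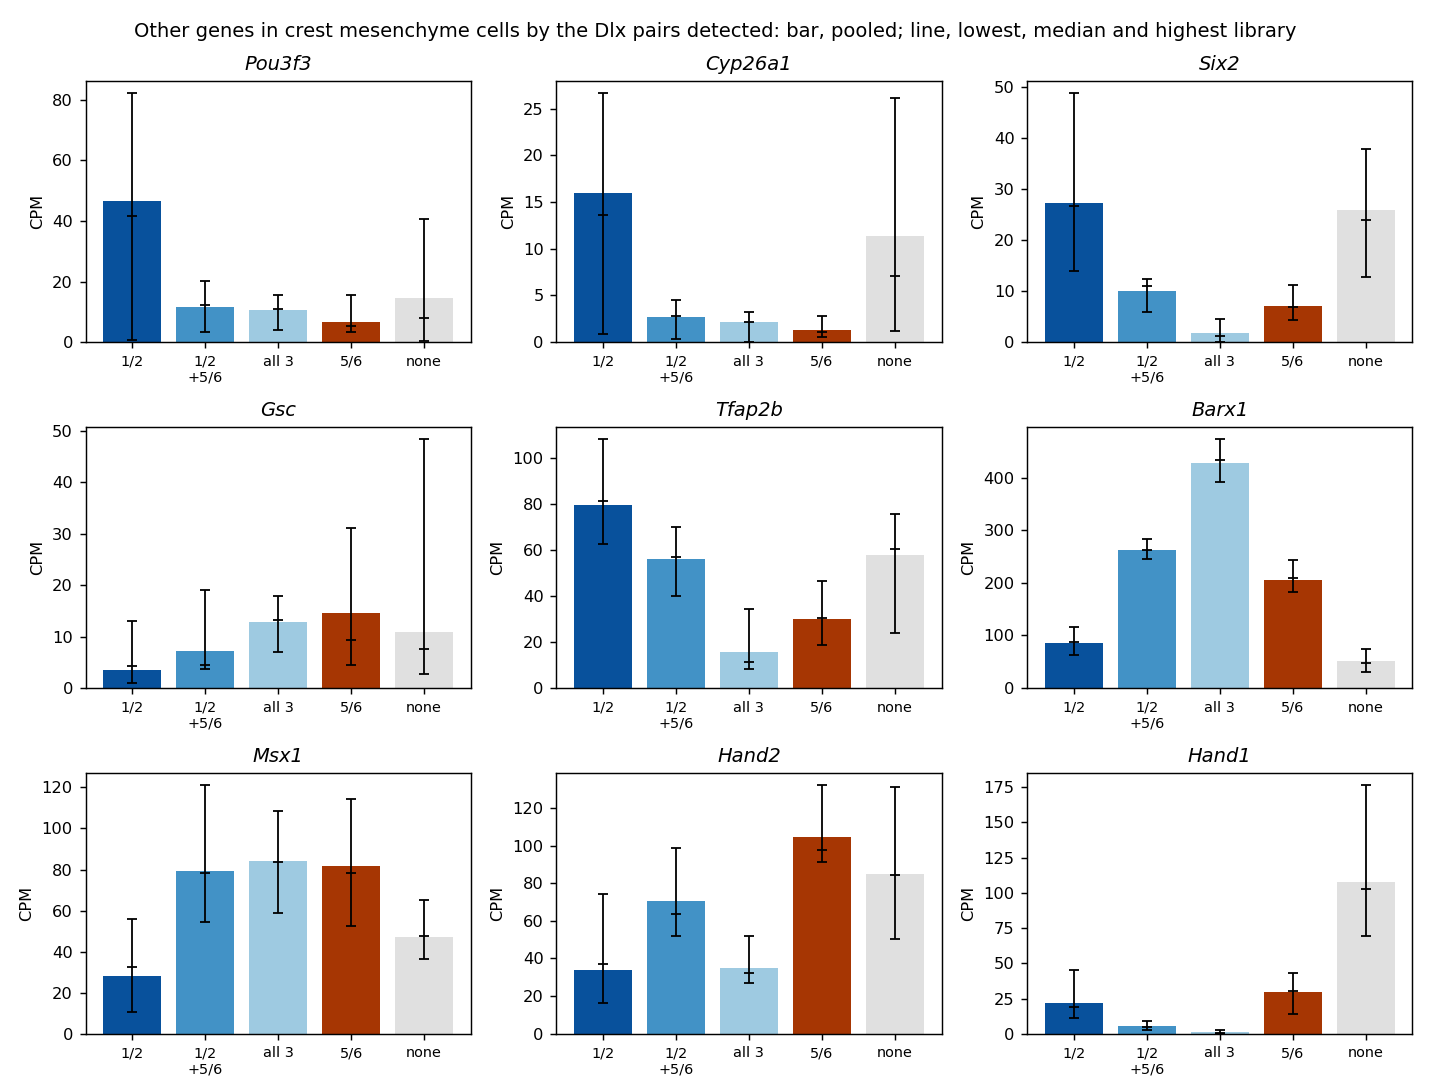
Levels, in CPM, of arch patterning genes in crest mesenchyme cells by the Dlx pairs detected (1/2, 1/2 with 5/6, all 3, 5/6 only, none); bars are pooled cells and lines run from the lowest through the median to the highest library. Barx1 is highest with all 3 pairs, at 427 CPM, and Pou3f3 with Dlx1 or Dlx2 only, at 46.6 CPM with a wide spread over libraries.

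Each pair has an antisense RNA. Dlx1as overlaps the whole of Dlx1 (5869 bp, exons included), Dlx6os1 spans the whole of Dlx6 (5235 bp) with no overlap of exons, and Dlx4os overlaps exons of Dlx4 over 1212 bp. The sources used here do not state whether counting used strand. Whether the counts of Dlx1 and Dlx4 were separated from those of their partners was not checked. Dlx6os1, also known as Evf, was at 45.5 CPM in crest mesenchyme, 34.7 CPM in Tfap2-negative mesenchyme, 0.634 CPM in surface ectoderm and 0.302 CPM in migratory crest and glia, the order of Dlx6. Dlx4os was at 8.55, 9.76, 0.339 and 0.101 CPM in these gates, the last from 1 UMI. Dlx1as was at 9.03, 4.29, 1.04 and 8.96 CPM, so it was present in migratory crest and glia as Dlx1 was. Between the arches Dlx6os1 was 2.47-fold and Dlx4os 4.95-fold higher in second arch crest, both called, while Dlx6 itself was at 41.7 and 41.5 CPM. In posterior arch crest Dlx6os1 was at 36.4 CPM with Hand and 18.6 CPM without.

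Genes with the most similar pattern were sought by Pearson's r of log2(CPM + 1) over 84 points, among 11581 genes. The points came from 16 gates and divisions of crest mesenchyme, by library with at least 50 cells. The points share libraries and differ in depth, so r is a description. An antisense RNA of the same chromosomal pair came first for all 6 members: Dlx1as for Dlx1 (0.963) and Dlx2 (0.917), Dlx4os for Dlx3 (0.902) and Dlx4 (0.960), and Dlx6os1 for Dlx5 (0.952) and Dlx6 (0.965). After these, Dlx1 was followed by Taf4b (0.879), Foxd2 (0.877), Mab21l1 (0.875) and Nkd2 (0.872). Dlx2 was followed by Tfap2a (0.888), which the crest gate used, Crabp1 and Gm26688 (0.860 each) and Taf4b (0.855). Dlx3 was followed by Dlx6os1 (0.882), Frzb (0.870), Styxl1 (0.857) and Fbln5 (0.856), and Dlx4 by Hmx1 (0.915), 3110099E03Rik (0.905), Dlx6os1 (0.899) and Fbln5 (0.854). Mab21l1 (0.920 and 0.937), Styxl1 (0.905 and 0.909) and Hmx1 (0.886 and 0.893) were near both Dlx5 and Dlx6, with Prr16 (0.895) near Dlx5 and the gate gene Prrx1 (0.895) near Dlx6. Among the members, r was highest for Dlx1 and Dlx2 (0.969) and for Dlx5 and Dlx6 (0.968), was 0.893 for Dlx3 and Dlx4 and 0.894 for Dlx3 and Dlx5, and was lowest for Dlx2 and Dlx4 (0.711).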

How the data were processed

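The 6 samples, 3 vehicle and 3 STZ, were 10x Chromium 3′ v3 RNA libraries. The authors deposited 1 table of raw UMI counts, made with Cell Ranger 5.0.0 per the file headers and pooling 6 libraries. CASAVA 1.8, Seurat 4 and build mm10 are named in the submitters' processing notes. The sample descriptions name a chromatin assay, while titles, library source and kit name RNA. No column of the table was left unused for want of a sample, and no test of STZ against vehicle was made.

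From the deposited counts, cells were filtered (at least 2500 genes, at most 10% mitochondrial UMIs), gated by markers and summed per gate and library. No doublet caller was run; the margin of 0.2 between marker lists and an alternative without the 5% of cells with most UMIs stand in for it. Thinning used 1 seeded draw to 10000 UMIs per cell. The shares and odds ratios averaged over draws were computed from the expected cell numbers over all such draws. Named genes were the 6 members, the 5 nearest by r, and up to 4 listed genes with the largest fold. Some others, such as Ednra, Bmp4 and the state genes, were named after their values were seen. Some genes of the lists are not reported here by name. One erythroid marker was not matched, leaving 5. The members and lists were chosen with earlier results of these data known. Python 3.11.15, numpy 2.4.6, scipy 1.17.1, pandas 2.3.3 and matplotlib 3.10.9 were used, and the scripts were tested on simulated data. Alternatives covered the cell filter, gates, Tfap2 requirement, high-UMI cells, shared barcodes, thinning, UMI thresholds and each library left out.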

Additional observations from a re-analysis of the deposited data

How the results depend on the processing

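No paired analysis was possible because no file pairs a library with a sample, although the titles share replicate numbers. The count of members past 2-fold with Hand in second arch crest rose from 0 to 1 (Dlx1) with no margin between lists and with Hand-positive cells at 2 UMIs. In posterior arch crest it was 1 (Dlx6) in place of 2 without the Tfap2 requirement. Between the arches it was 2 (Dlx3 and Dlx4) in place of 1 for genes at 1 CPM or more. Over all crest it ran from 0 to 1 when 1 library was left out, with the 1 (Dlx6) without library 1. The shares of co-detection moved with depth and gate, listed as Dlx1 or Dlx2 given Dlx5 or Dlx6, Dlx5 or Dlx6 given Dlx3 or Dlx4, Dlx5 or Dlx6 given Dlx1 or Dlx2, and Dlx3 or Dlx4 given Dlx5 or Dlx6. They were 46.6%, 59.8%, 37.0% and 11.4% at 5000 UMIs, 94.0%, 97.1%, 67.1% and 42.1% without thinning, 29.0%, 45.8%, 30.5% and 3.21% at 2 UMIs or more, and 57.8%, 76.2%, 71.4% and 27.1% in Tfap2-negative mesenchyme, a set added after the data were seen. Without the Tfap2 requirement they were 62.7%, 78.3%, 59.7% and 23.8%. With 1 library left out, Dlx5 or Dlx6 given Dlx1 or Dlx2 ran from 49.1% to 55.3%. In 68 of 68 such alternatives the share stayed above that of cells without the pair. This count holds each step both ways, which go the same way by construction, and most alternatives reuse the same cells. It includes no single library, and the outer step went this way in 5 of 6 libraries. Without the Tfap2 requirement Dlx1 was at 36.8 CPM and Dlx2 at 46.8 CPM in the crest gate. The causes of these shifts were not tested, beyond the depth and cells that each setting changes by construction. Depth limits detection of every member: Dlx4, for example, was found in 2.74% of thinned and 10.2% of unthinned crest cells.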

Other observations

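Surface ectoderm expressed Dlx genes in a pattern of its own beside the mesenchyme: Dlx2 was at 25.2 CPM, Dlx5 at 7.35 CPM, Dlx3 at 7.01 CPM and Dlx1 at 4.68 CPM, and Dlx6 and Dlx4 were at 0.747 and 0.385 CPM. Its cells carried 401 CPM of the crest mesenchyme marker list, which Tfap2a also belongs to, and 2557 CPM of the epithelial list.

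Levels in second arch Hand-negative crest fell apart between libraries. Dlx5 was at 125, 122, 140, 64.9, 73.7 and 58.2 CPM in libraries 1 to 6, Dlx6 at 58.7, 48.6, 59.9, 33.4, 32.2 and 25.8 CPM, Dlx3 at 30.6, 43.8, 41.0, 19.8, 20.8 and 16.1 CPM, and Dlx4 at 10.4, 8.14, 16.0, 4.51, 5.71 and 2.49 CPM. Dlx1, at 80.0, 65.9, 71.3, 72.3, 76.6 and 85.3 CPM, did not fall apart in this way. Dlx2 was at 66.4, 60.6, 92.7, 91.7, 89.3 and 102 CPM, low in libraries 1 and 2 and not in library 3. In second arch Hand-positive crest Dlx5 was at 78.8, 85.3, 87.6, 90.5, 72.5 and 100.1 CPM. The share of second arch Hand-negative cells with Dlx1 or Dlx2 only ran from 3.64% to 53.8% over libraries. Migratory crest and glia numbered 12, 22, 19, 57, 99 and 60 cells in libraries 1 to 6. The libraries have no group in the files used here, so these values stand without a comparison.

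Cardiomyocytes, planned as a background gate, held low levels of Dlx5 and Dlx6 above those of endothelium. Dlx5 was at 3.14 against 1.05 CPM (3.00-fold, 2.36 to 3.84) and Dlx6 at 1.30 against 0.455 CPM (2.85-fold, 1.98 to 4.21), each higher in 6 of 6 libraries. Both were under the 10 CPM needed for a call. Dlx5 was found in 2.81% of thinned cardiomyocytes and 0.559% of endothelial cells, at median depths of 43813 and 38806 UMIs. The crest mesenchyme marker list moved with them, at 263 CPM in cardiomyocytes and 91.8 CPM in endothelium, as did Barx1, at 17.8 and 2.50 CPM, and the part of crest RNA or cells in the difference was not tested. Dlx1 was at 0.627 and 0.303 CPM and Dlx2 at 0.828 and 0.429 CPM in the same gates.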
